A study of Rattus norvegicus with 4 samples.

Results

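Some strong H3K4me3 regions of rat sciatic nerve stand in close pairs, with a short uncalled stretch between them. The pairs were chosen by measured values. Peaks of a sham list and a transected list that overlapped by 1 bp or more were merged into regions. A region met the limits where it held exactly 1 peak in each list, was called 500 to 3999 bp long in both and carried at least 79.2 normalized tags in both. Adjacent regions that both met these limits, with a gap of at most 2000 bp, made a pair. The set held 449 pairs built from 883 regions, out of 39013 merged regions in all, 27962 of them in both lists. Of the 11745 regions that met the limits on size, tags and peak number, 7.52% stood in a pair, and the 10862 others served as the comparison.

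The nerves came from adult male Sprague Dawley rats, which the labels also mark P42 under a heading for passage, with no word on what it counts. 2 samples were nerve distal to a cut made 1 day earlier (transected). The other 2 were the opposite nerves of the operated animals, whose limb had a skin incision and no nerve cut (sham). All rats had thus undergone surgery, and the sham nerve is a contralateral one. Chromatin was digested with micrococcal nuclease and precipitated with an antibody to H3K4me3. The labels do not tie the 2 samples of a group to animals. Tags of both were combined by the authors ahead of peak calling, so each value below comes from 1 list per condition, with no replicate spread and no p-value.

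H3K4me3 is laid down by the SET1 and MLL complexes, mainly on the nucleosomes around transcription start sites of active genes and CpG-rich promoters. Nucleosomes are often depleted over the start site itself, so the mark typically flanks it as an upstream and a downstream block. Promoters that fire in opposite directions, or neighbouring start sites of a gene, can also place marked blocks side by side. Sciatic nerve holds Schwann cells, fibroblasts, endothelial and immune cells, and loss of axon contact sets Schwann cells on a repair programme. In such tissue, a change in cell numbers and a change in the mark per cell cannot be told apart. The lists name no genome build, and the gene positions at hand belong to another build. Pairs are therefore given by position, with the left side at the lower coordinate, and neither genes, sequences nor cell type markers were assigned.

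The sham list held 35856 peaks from 22595649 tags and the transected list 33100 peaks from 21307148 tags. Tag counts were scaled to 10000000 tags by the authors. Log2 ratios divide transected by sham tags. From each, the median of all regions found in both lists (-0.07) was subtracted. Intervals of single ratios are 95% exact (Clopper-Pearson) intervals that cover counting error only.

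Most close neighbours of the lists were not pairs of strong regions. There were 7970 adjacent merged regions with a gap up to 2000 bp, and 5.63% of them were pairs. In 4822 a side was present in 1 list alone, in 436 others a side held more than 1 peak of a list, in 1931 others a side lay outside the size limits, and in 332 others a side carried too few tags. The pairs were compact. The distance from outer edge to outer edge had a median of 3559 bp, with quartiles of 2689 and 4574 bp. Around 295 of the 449 pairs (65.7%) no further merged region lay within 2000 bp on either side. The 883 regions held 4.33% of the tags in sham peaks and 4.40% of those in transected peaks.

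Gaps were mostly short. The merged gap, counted from the outermost call of either list, had a median of 497 bp and quartiles of 293 and 1037 bp. It was at most 500 bp in 225 pairs (50.1%) and at most 1000 bp in 327 (72.8%). Within the lists the median gap of a pair was 535 bp in sham and 548 bp after transection. No gap was below 220 bp in either list, for pairs or for any other neighbouring peaks. This floor equals the caller's minimum distance of 370 bp less its window of 150 bp, so the short end of the distribution is set by the calling. Of gaps up to 2000 bp between any neighbouring peaks, 52.8% in sham and 53.6% after transection were at most 500 bp.

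**Figure D1:**
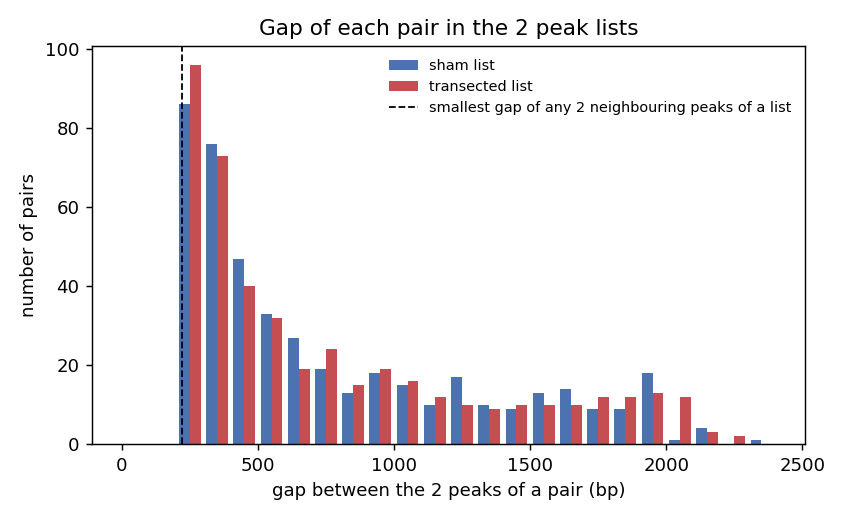
Number of pairs (vertical axis) by the gap in bp between their peaks (horizontal axis, bins of 100 bp), with blue bars for the sham list and red bars for the transected list. Gaps pile up just above the dashed line at 220 bp and thin out towards the 2000 bp limit, and both lists have the same form.

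In the 5 pairs with the shortest merged gap, the lists placed the uncalled stretch differently, so that the merged gap was below the gap of either list. On chromosome 10, a left side at 55450601 to 55454395 and a right side at 55454440 to 55455977 were 45 bp apart after merging. Within the lists that gap was 370 bp in sham and 366 bp after transection, but at a shifted place, since the left side was called 3373 bp long in sham and 3794 bp after transection. Its left side carried 1399.4 tags in sham and 1374.2 after transection, and its right side 283.7 and 245.0. On the same chromosome, sides at 85389797 to 85392498 and 85392600 to 85395562 had a gap of 378 bp in sham and 223 bp after transection. The next shortest were at 80014371 to 80016740 and 80016854 to 80018396 on chromosome 1 (227 bp in sham, 327 bp in transected), at 21974830 to 21977466 and 21977614 to 21978931 on chromosome X (342 and 228 bp), and at 59927620 to 59928387 and 59928558 to 59929338 on chromosome 6 (298 and 255 bp). In both lists every one of the 5 was split into separate peaks, as the rule requires.

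Values on both sides of the gap limit are given for reference. The pairs just inside it had gaps of 1998 bp (chromosome 13, left side from 56434765), 1981 bp (chromosome 8, from 115662751) and 1975 bp (chromosome 1, from 212127340), with balances in sham of 0.854, 0.234 and 0.359. The neighbours just outside had gaps of 2001 bp (chromosome 1, from 228165221), 2005 bp (chromosome 13, from 76153749) and 2012 bp (chromosome 2, from 183479174), with balances of 0.169, 0.869 and 0.237.

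Member regions were smaller than other regions that met the limits. Their median was 355.4 normalized tags in sham and 355.3 after transection, against 560.5 and 556.9 in the others. Called lengths had medians of 1270 bp in sham and 1217 bp after transection, against 1629 and 1571 bp. Per kb of called length the difference was smaller, with 288 tags per kb in sham and 296 after transection against 330 and 337. The findPeaks score, a value of the authors' caller that the rule did not use, ran the other way. It had a median of 13 in both lists for members and 11 for the others, and its upper quartile was 25.5 against 16 in sham and 26.5 against 16 after transection. The score need not follow tags. The left side with 1663.2 tags in sham, named below, scored 8, the caller's tag threshold. At that threshold were 17.0% of members and 17.3% of the others in sham, and 14.2% and 17.4% after transection. Scores were highest at the shortest gaps, with medians of 14 in sham and 15 after transection at gaps up to 500 bp and 11 and 12 at over 2000 to 5000 bp. The clonal fold, by which the caller removes regions with too few distinct tag positions, had a median of 0.80 in sham and 0.78 after transection for members, against 0.90 and 0.89. It exceeded 1.5 in 2.15% and 1.47% of members, against 4.31% and 4.22% of the others.

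The members of a pair were usually unequal. Balance is the normalized tags of the weaker side over those of the stronger. Its median was 0.508 in sham, with quartiles of 0.345 and 0.747, and 0.524 after transection, with quartiles of 0.313 and 0.731. Neighbours that met the same limits but lay further apart, 3926 of them, had medians of 0.551 and 0.526. By these medians close pairs were not more even than distant ones, and the difference was not tested. A balance of at least 0.8 was seen in 76 pairs in sham and 79 after transection, and one under 0.25 in 66 and 81. As shares, 16.9% and 17.6% of pairs were at 0.8 or above, against 21.5% and 20.1% of neighbours further apart, and 14.7% and 18.0% were under 0.25, against 16.4% and 19.2%. The tag limit bounds how uneven a pair can be. Both length and density took part. The median balance was 0.643 for called length and 0.612 for tags per kb in sham, and the stronger side was also the longer in 317 of 449 pairs (70.6%, against 71.6% of neighbours further apart). Tags of the left and right sides were nearly unrelated over pairs, with a Spearman rho of 0.02 in both lists. The stronger side was the left one in 213 pairs and the right one in 236. Over 449 pairs balance and gap had a Spearman rho of -0.08. By class of gap, the median balance in sham was 0.526 up to 500 bp and 0.524 over 500 to 1000 bp. It was 0.527 over 1000 to 1500 bp and 0.398 in the 61 pairs with gaps over 1500 to 2000 bp. In that last class it was 0.360 after transection, and 24.6% of pairs were under 0.25 in sham.

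The imbalance of a pair was kept after transection. In 415 of 449 pairs (92.4%) the same side was the stronger in both nerves, and the share was 93.7% of 3926 neighbours further apart. Over pairs, the log2 ratio of right to left tags in sham and after transection had a Pearson r of 0.97 and a Spearman rho of 0.97. These points share the peak calling, and the same correlation over neighbours further apart was 0.98. That log2 ratio had a standard deviation of 1.40 over pairs in sham, and its difference between nerves one of 0.34. The 34 pairs whose stronger side switched had a median balance of 0.923 in sham and 0.876 after transection. The lowest balances among them were 0.489 and 0.691, and 19 of the 34 were at 0.8 or above in both lists.

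**Figure D2:**
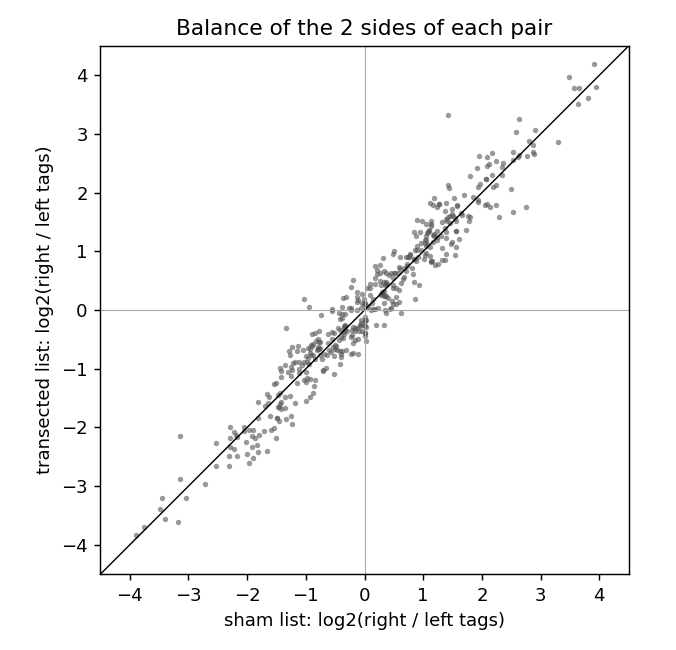
Log2 ratio of right-side to left-side normalized tags in the transected list (vertical axis) against the sham list (horizontal axis), with a point for each of 449 pairs and a diagonal line of equality. Points follow the diagonal over the whole range, and 415 lie in the upper right or lower left part, where the same side is stronger in both lists.

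The pairs that were most uneven in sham were about as uneven after transection. On chromosome 4, a weak side at 66084332 to 66085259 carried 98.7 tags in sham and 100.9 after transection, while its neighbour 1472 bp away at 66086731 to 66089082 carried 1520.6 and 1410.3. The balance was 0.065 in sham and 0.072 after transection. On chromosome 8, the side at 22047484 to 22049402 had 96.5 and 80.3 tags beside a side at 22049795 to 22052724 with 1455.6 and 1467.6, a balance of 0.066 and 0.055. On chromosome 1, a strong side at 236790918 to 236794335 (1353.4 and 1318.3 tags) stood beside a weak side at 236795720 to 236797235 (91.2 and 92.5 tags). The other two of the 5 least even pairs, at 85531920 to 85536467 on chromosome 10 and 756288 to 761060 on chromosome 17, had balances of 0.071 and 0.074 in sham and 0.082 and 0.077 after transection. In all 5 of these pairs the counting interval of the weak side's ratio contained 0.

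Pairs that were level in sham did not all stay so. They were picked for their sham value, so a lower balance in the other list follows in part from the choice. On chromosome 9, sides at 15641766 to 15643422 and 15643929 to 15646434 had 536.8 and 537.3 tags in sham, and 589.9 and 448.2 after transection. The left log2 ratio was 0.21 (interval 0.09 to 0.32) and the right one -0.19 (-0.32 to -0.07), so the balance was 0.999 in sham and 0.760 after transection. As tags per kb the ratios were 0.07 and -0.10. On chromosome 6, sides at 110708176 to 110709115 and 110709367 to 110710961 had 729.3 and 730.2 tags in sham and 762.7 and 816.2 after transection, a balance of 0.934 in the latter. For the next of the 5, spanning 115448384 to 115451900 (chromosome 8), 4019411 to 4025268 (chromosome 10) and 64237342 to 64239526 (chromosome 17), the balance after transection was 0.876, 0.888 and 0.917.

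The 5 pairs with most tags were picked for their level, and their tags in each nerve are given for reference. The leading pair lay on chromosome 8, with a left side at 116696397 to 116699523 and a right side at 116699841 to 116701429, 318 bp apart. The left side carried 1663.2 tags in sham and 1801.7 after transection (log2 0.19, interval 0.12 to 0.25), and the right side 614.3 and 680.1 (log2 0.22, interval 0.11 to 0.32). On the centred scale both sides were thus slightly higher after transection. Their log2 ratios were 0.12 and 0.15 without centring, and 0.06 and 0.14 after a lowess of the ratio on tags. On chromosome 10 the next pair had 755.0 and 604.0 tags on its left side (15008175 to 15009941) and 1353.4 and 1514.5 on its right (15011567 to 15014818). Its sides moved apart, with log2 ratios of -0.25 and 0.23. On chromosome 9, the left side at 8707773 to 8711334 had 1525.5 and 1265.8 tags and the right side at 8711592 to 8712607 had 597.0 and 662.2, again in opposite directions (-0.20 and 0.22). On chromosome 17, sides at 18166884 to 18167735 and 18168372 to 18170968 had 632.9 and 1303.8 tags in sham and 642.0 and 1468.5 after transection. The fifth, on chromosome 3 at 154712435 to 154714882 and 154715229 to 154716967, had 663.0 and 1287.9 tags in sham and 618.1 and 1369.5 after transection.

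Large differences between the nerves were rare in members, as in strong regions at large. The contrast of the lists was part of the rule, which asked for enough tags in both, so these counts are given without a test. Of the 883 members, 17 (1.93%) were at least 1.5-fold higher after transection, where 0.954% of all 11745 regions that met the limits were. At least 1.5-fold lower were 8 members (0.906%), where 1.51% of the 11745 were. At 2-fold the numbers were 2 higher and 1 lower. Exactly 1 side passed 2-fold in 3 of 449 pairs, and in 12 of 3926 neighbours further apart. Log2 ratios had a standard deviation of 0.25 in members and 0.24 in the others, and the median counting error of a single ratio 0.07 and 0.06. Members and others had the same median, 0.06 on the centred scale. The stronger sides had a median of 0.10 and a standard deviation of 0.23, and the weaker sides 0.02 and 0.28. As tags per kb the medians were 0.02 for stronger and 0.01 for weaker sides. Of the 25 members past 1.5-fold, all 8 lower ones were called shorter after transection and 12 of the 17 higher ones longer. As tags per kb, 24 of the 25 kept their direction and 10 stayed past 1.5-fold. Among all 883 members, 542 were called longer in sham and 338 after transection. The 10862 others leaned the same way, with 6953 longer in sham and 3879 after transection.

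Both sides of a pair did not generally shift together. In 232 of 449 pairs (51.7%) both centred ratios had the same sign, and in 217 the signs were opposite. Among neighbours further apart 54.7% had the same sign. Of the 232 pairs, 162 were higher and 70 lower on both sides. That split follows the centring, since without centring 96 were higher and 119 lower, and centred on the median of regions that met the limits, a setting chosen after seeing the data, 109 were higher and 108 lower. Taking counting error into account, both intervals lay above 0 in 53 pairs (11.8%, against 16.4% of neighbours further apart) and both below 0 in 17 pairs (3.79%, against 3.41%). They lay on opposite sides of 0 in 43 pairs (9.58%, against 12.3%). In the remaining 336 pairs at least 1 side had an interval that contained 0. In the 225 pairs with gaps up to 500 bp, both intervals lay above 0 in 37 (16.4%) and below 0 in 8 (3.56%). They lay on opposite sides in 18 (8%). The shares among neighbours further apart, given above, were 16.4%, 3.41% and 12.3%. The intervals use the same centring, so the split of above and below depends on it. Members had a larger median counting error (0.073) than other regions that met the limits (0.058), which widens their intervals. Differences between these shares were not tested.

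Over all 449 pairs the left and right log2 ratios had a Pearson r of 0.10 and a Spearman rho of 0.06. Over the 3926 neighbours further apart r was 0.05 and rho 0.05. The sides of a pair share lists, depth and centring, and 15 regions belong to 2 pairs. By gap, r was 0.21 (rho 0.12) in the 225 pairs up to 500 bp, -0.10 in the 102 pairs over 500 to 1000 bp, 0.13 in the 61 over 1000 to 1500 bp and -0.04 in the 61 over 1500 to 2000 bp. At over 2000 to 5000 bp it was 0.03 and at over 5000 to 10000 bp 0.10. Without 1 pair on chromosome 3, described next, the value up to 500 bp was 0.17, and over all pairs 0.08. No steady fall of r with the gap was seen, and differences between these values were not tested.

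**Figure D3:**
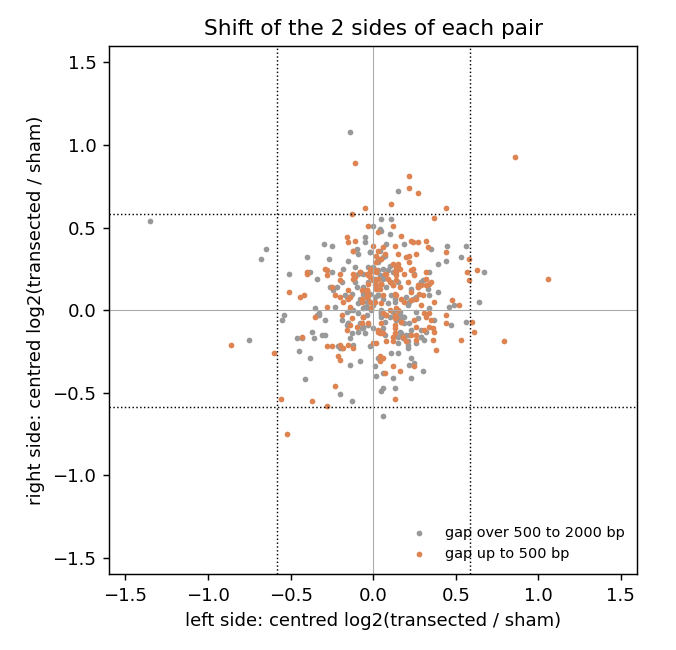
Centred log2 ratio of transected over sham for the right side (vertical axis) against the left side (horizontal axis), with a point for each of 449 pairs, orange for gaps up to 500 bp and grey for gaps over 500 to 2000 bp. Dotted lines mark 1.5-fold, and the cloud is round, with 1 point past the lines on both sides (upper right).

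On the centred scale 1 of the 449 pairs differed at least 1.5-fold on both sides in the same direction, against 0% of the 3926 neighbours further apart, and no pair did so at 2-fold. Without centring there were 3 such pairs, and 2 when centred on the median of regions that met the limits. The pair past 1.5-fold on the centred scale lay on chromosome 3, with sides at 170576629 to 170578302 and 170578626 to 170581453 and a merged gap of 324 bp. The left side had 147.8 tags in sham and 254.8 after transection (log2 0.86, or 1.81-fold, interval 0.66 to 1.06). The right side had 531.1 and 965.4 (1.91-fold higher, log2 0.93, interval 0.83 to 1.04). Called lengths were 1434 and 1669 bp on the left and 2728 and 2827 bp on the right. As tags per kb the log2 ratios were 0.55 and 0.79, so the left side fell short of 1.5-fold on that scale. The balance was 0.278 in sham and 0.264 after transection.

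In 24 pairs 1 side alone was past 1.5-fold. Its partner moved in the same direction in 14 of them and in the other direction in 10. The partner's median shift towards that direction was 0.13 on the log2 scale, with a range of -0.54 to 0.52. Among neighbours further apart this held for 61 of 135, with a median of -0.02. In the remaining 424 pairs neither side reached 1.5-fold.

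Other pairs with both sides higher followed at smaller sizes. On chromosome 13, the left side at 95678218 to 95678814 had 111.1 tags in sham and 143.6 after transection (log2 0.44), and the right side at 95679302 to 95680838 had 464.2 and 679.1 (log2 0.62, interval 0.50 to 0.73). On chromosome 19, sides at 36775303 to 36777623 and 36778573 to 36779745 had 418.2 and 606.8 tags in sham and 586.2 and 759.8 after transection, with log2 ratios of 0.56 and 0.39. On chromosome 9, at 113046237 to 113047099 and 113047955 to 113049285, the ratios were 0.45 and 0.39. The left side of that pair was called 719 bp long in sham and 862 bp after transection, and its ratio per kb was 0.10. On chromosome 15, at 45573234 to 45573866 and 45574091 to 45575032, the ratios were 0.37 and 0.56, and 0.51 and 0.48 per kb.

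Among pairs with both sides lower, the first lay on chromosome 13. Its left side at 56680597 to 56682107 had 147.4 tags in sham and 95.3 after transection (log2 -0.56, or 1.47-fold down, interval -0.82 to -0.30). Its right side at 56682402 to 56683986 had 430.6 and 282.5 (1.45-fold lower, log2 -0.54, interval -0.69 to -0.39). The balance was 0.342 and 0.337, so in tags both sides went down in proportion. The left side was called 1510 bp long in sham and 1261 bp after transection, and the ratios per kb were -0.39 and -0.54. Without centring the tag ratios of this pair were -0.63 and -0.61, past 1.5-fold on both sides. On chromosome 9, sides at 30831815 to 30833083 and 30833549 to 30834581 had 148.7 and 147.4 tags in sham and 99.0 and 83.5 after transection, with log2 ratios of -0.52 and -0.75, or -0.59 and -0.82 without centring, also past 1.5-fold. The left one was called 1268 bp long in sham and 934 bp after transection, and its ratio per kb was -0.16. On chromosome 14, sides at 78185092 to 78186527 and 78187111 to 78188771 had ratios of -0.41 and -0.42. The right one was called 1660 bp long in sham and 1197 bp after transection, and the ratios per kb were -0.57 and -0.04. On chromosome 2, at 156479563 to 156483402 and 156483875 to 156485770, they were -0.37 and -0.55, and on chromosome 8, at 116611212 to 116612330 and 116613005 to 116615275, -0.38 and -0.29. The 10 pairs named here for a joint shift were picked for it, so their agreement is no support for a shared response.

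Some sides of a pair parted strongly. On chromosome 7, the left side at 12448743 to 12450579 had 272.2 tags in sham and 101.4 after transection (log2 -1.35, or 2.56-fold down, interval -1.59 to -1.13). The right side at 12451480 to 12453894, 901 bp away, had 729.8 and 1011.9 (1.46-fold higher, log2 0.54, interval 0.45 to 0.63). The balance was 0.373 in sham and 0.100 after transection. The left side was called 1836 bp long in sham and 1212 bp after transection, and its ratio per kb was -0.84. On chromosome 18, the left side at 25924117 to 25927630 had 629.8 and 382.0 tags (log2 -0.65, interval -0.78 to -0.53) and the right side at 25928137 to 25929010 had 250.0 and 308.8 (log2 0.37, interval 0.21 to 0.54). That pair was uneven in sham (0.397) and nearly level after transection (0.808).

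The next opposite shifts also changed the balance. On chromosome 10, sides at 86496679 to 86498852 and 86500282 to 86501126 had 247.8 and 128.8 tags in sham and 147.4 and 152.1 after transection, where the balance reached 0.969 and the right side was narrowly the stronger. On chromosome 1, the left side at 273516327 to 273518368 had 490.4 and 423.3 tags and the right side at 273519133 to 273521953 had 239.9 and 482.5 (2.11-fold higher, log2 1.08, interval 0.93 to 1.23). The stronger side switched there, and the right ratio per kb was 0.87. On chromosome 10, the left side at 13824361 to 13827167 had 97.4 and 160.5 tags (log2 0.79) beside a right side at 13827544 to 13831238 with 653.7 and 544.4. Its left side was called 1787 bp long in sham and 2806 bp after transection, the gap was 1306 bp in sham and 377 bp after transection, and the left ratio per kb was 0.05.

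**Figure D4:**
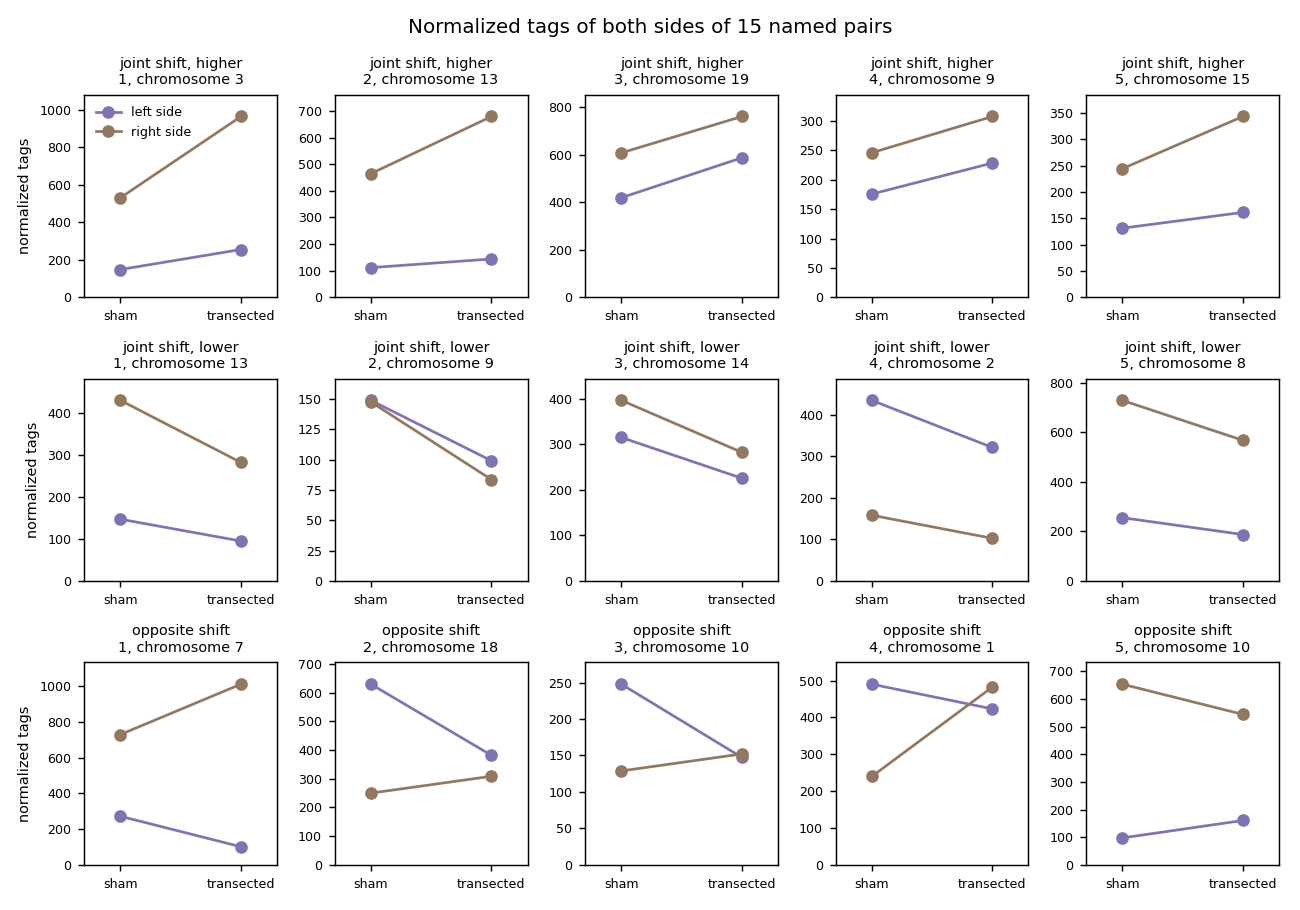
Normalized tags (vertical axes, from 0, scaled for each panel) in the sham and transected lists for the left side (purple) and right side (brown) of 15 pairs: the 5 strongest joint shifts upward (top row), downward (middle row) and the 5 strongest opposite shifts (bottom row). Lines run nearly in parallel or in proportion in the upper rows and converge, part or cross in the bottom row, as on chromosome 1, where 490.4 and 239.9 tags became 423.3 and 482.5.

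Called edges that faced the gap lay closer together in the lists than outer edges. The median distance between the sham and transected call was 26 bp for the 898 gap-facing edges and 60 bp for the 898 outer edges. At most 50 bp separated the calls for 70.7% of gap-facing and 43.5% of outer edges. In 335 of 449 pairs (74.6%) the gap-facing edges moved less in sum than the outer ones. Among neighbours further apart the medians were 54 and 53 bp, and gap-facing edges moved less in 50.8%. The difference between pairs and these neighbours was not tested. The contrast was larger at short gaps. It was 19 against 61.5 bp up to 500 bp, 26 against 54 bp at over 500 to 1000 bp, and 47 against 59.5 bp at over 1000 to 2000 bp. At over 2000 to 5000 bp, past the limit, it was 47 against 59 bp. A call that reached much further into a short gap would have joined the peaks and removed the pair from the set, so the rule bounds shifts into the gap. Shifts away from the gap are bounded by the limits on size and tags, which each side had to meet in both lists.

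Edges of pairs mostly reached further out in sham, as did edges of strong regions at large. This held for 549 of 898 outer edges and 496 of 898 gap-facing edges, and the transected call reached further in 346 and 392. Over other regions that met the limits the sham call reached further at 13289 of 21724 edges. At gaps up to 500 bp the gap-facing edges showed no lean, with 218 further out in sham and 224 after transection. The gap itself differed by at most 100 bp between lists in 338 pairs (75.3%), with a median difference of 43 bp in size. It was wider after transection in 247 pairs and narrower in 200. At gaps up to 500 bp the lean was the other way, with 104 wider and 120 narrower. Wider and narrower were 67 and 35 at over 500 to 1000 bp. They were 35 and 26 at over 1000 to 1500 bp, and 41 and 19 at over 1500 to 2000 bp. Of the 3926 neighbours further apart the gap was wider in 2516 and narrower in 1391, and it differed by at most 100 bp in 2016. The fragment length in the file headers was 144 bp for sham and 132 bp for transected nerve, and its part in the edge positions was not tested.

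**Figure D5:**
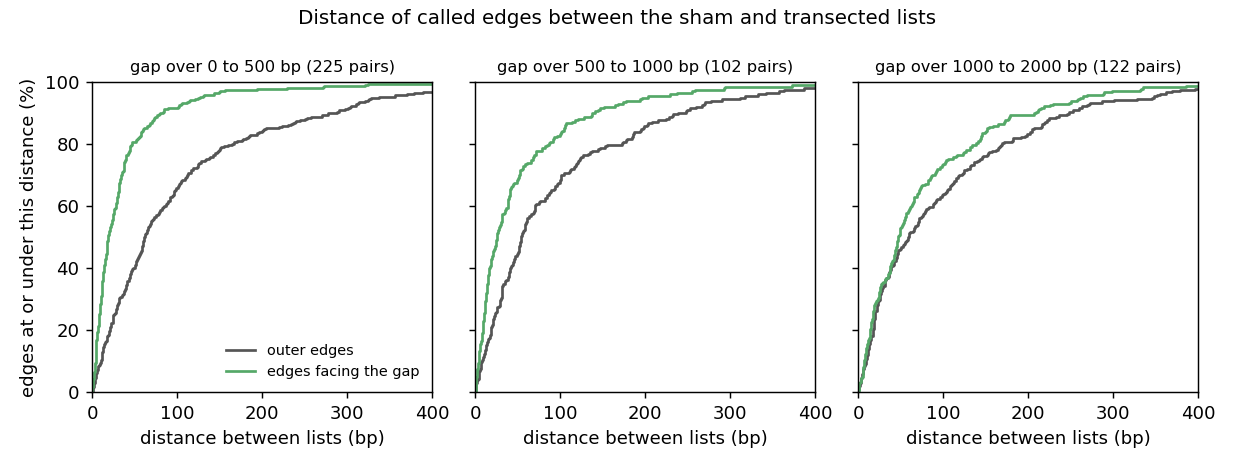
Share of called edges in % (vertical axis) whose sham and transected positions lie within a given distance in bp (horizontal axis, shown to 400 bp), green for edges facing the gap and dark grey for outer edges, in 3 panels by gap. The green curve is far above the grey one for the 225 pairs with gaps up to 500 bp and close to it for the 122 pairs over 1000 to 2000 bp.

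Pairs lay on every chromosome of the lists. Chromosome 1 held most, with 62 pairs, and chromosome X fewest, with 6. As a share of regions that met the limits, members ran from 3.41% on chromosome X (95% exact interval 1.77 to 5.88) to 12.6% on chromosome 14 (9.55 to 16.2). Chromosome 10 followed with 51 pairs and 10.4% (8.53 to 12.5). These intervals treat regions as independent, which the sides of a pair are not, so they are too narrow.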

How the data were processed

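H3K4me3 was profiled in 4 samples, 2 per group, and 2 peak lists were analysed, each called by the authors with HOMER findPeaks on the pooled tags of a group, per the file headers. Windows of 150 bp were stitched with a minimum distance of 370 bp at a false discovery rate of 0.001, per the file headers. The submitters' processing notes list CASAVA 1.8.2, Bowtie and HOMER. No source used here gives a genome build or a version of the latter programs. Normalized tag counts are a signal that was scaled to 10000000 tags by the authors. The deposited clonal fold (a ratio), findPeaks score and region size (bp) were taken unchanged. Peaks were merged and neighbours found with Python 3.11.15 (pandas 2.3.3, numpy 2.4.6, scipy 1.17.1, statsmodels 0.14.6). The gap is the start of the right region minus the end of the left one. Tags before scaling were recovered as whole numbers within 0.12 of a tag for the counting intervals, which treat tags as independent molecules. The 1.5-fold rule is one of size, not a test. The pair finder was tested on simulated pairs with strong, well-spaced peaks, each present in both lists. Peaks missing from a list, split peaks and regions near the tag limit were not simulated.

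Members, limits and comparisons were chosen with earlier results of these data known. By a rule set out with the design, the text names the 5 pairs with most tags, the 5 with the shortest gap, the 5 most and 5 least balanced in sham, the 5 strongest joint shifts in each direction (by the smaller of the shifts), the 5 largest products of opposite shifts, the chain of most regions (with most tags among chains of 3) and 3 neighbours on each side of the gap limit. Fold over local background was planned as a further column and was not used here.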

Additional observations from a re-analysis of the deposited data

How the results depend on the processing

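No replicate was left out and no result carries a replicate error, because the lists pool the samples of a group. No paired analysis was possible because each group is 1 pooled list and no result comes from a test. With regions of at least 1000 bp the set had 192 pairs with a median gap of 665 bp, and both sides shifted the same way in 58.9%. The median gap was 361 bp with a limit of 1000 bp and 731 bp with one of 3000 bp. The median balance in sham was 0.586 with a limit of 150 tags and 0.612 as tags per kb. The count of 1 pair past 1.5-fold on both sides was 0 at 150 tags, as tags per kb, at 2-fold and without that pair, 2 centred on regions that met the limits and 3 without centring. Leaving out that pair and centring on those regions were chosen after seeing the data. Over the other settings tried the share shifting the same way ran from 47.9% to 52.8%, and over every setting tried r ran from 0.02 to 0.16. Asking that the peaks of a region overlap by 50% changed none of these 6 results. Of 80 sides of 40 named pairs, 4 no longer passed 1.5-fold as tags per kb, 1 without centring and 1 after a lowess on tags, and 4 newly passed it without centring. None that passed 1.5-fold changed direction. The direction of smaller shifts depends on the centring, on the use of tags or tags per kb, and on the lowess. On chromosome 10, the left side from 55450601 had a log2 ratio of 0.04, but -0.21 as tags per kb and -0.08 after the lowess. The right side of that pair had -0.14, but 0.16 as tags per kb. Depth gave a median counting error of 0.07 on the log2 scale for a member.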

Other observations

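In 15 places pairs ran on into chains of 3 regions, and no chain was longer. The middle region had more tags than both outer ones in 7 chains, fewer than both in 4 and lay between in 4. Median tags over both lists were 390 for middle regions and 342 for outer ones. All 3 regions were higher after transection in 3 chains, all 3 lower in 0, and directions were mixed in 12. The chain with most tags lay on chromosome 9, at 81432046 to 81433217, 81434710 to 81437119 and 81437340 to 81438957. Its regions had 636.4, 328.4 and 1021.9 tags in sham and 543.0, 309.8 and 977.1 after transection, with log2 ratios of -0.16, -0.01 and 0.01. The first was called 1171 bp long in sham and 887 bp after transection, and its ratio turned to 0.15 as tags per kb. Its gaps were 1493 and 241 bp in sham and 1815 and 289 bp after transection.

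The pairs whose gap differed most between lists were picked after their values were seen. On chromosome 20, sides from 7499332 to 7503215 and 7504186 to 7505943 had a gap of 2152 bp in sham and 971 bp after transection. The left side reached 1076 bp further into the gap after transection, with 1306.4 tags in sham and 1745.0 after transection. On chromosome 10, sides from 14973990 to 14975664 and 14976670 to 14979494 had a gap of 1006 bp in sham and 1979 bp after transection. Both of its sides had fewer tags after transection, 561.6 and 484.3 on the left and 285.5 and 216.8 on the right.

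Over members, the log2 ratio of called lengths and the centred log2 ratio of tags had a Pearson r of 0.39 and a Spearman rho of 0.34, against 0.37 and 0.33 in other regions that met the limits. Tags and length come from the same calls, and these are values across regions of the same lists. Within 2000 bp outside the pairs lay 167 further merged regions, counted once per pair. Of these, 67 were present in 1 list alone, 64 were in both lists with mean tags under 79.2 and 36 were in both at or above it. In the 15 chains of 3, the third region counts as such a neighbour for each pair, though it is a member. These members all fall among the 36.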
